A study of Mus musculus with 52 samples.

Results

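Haematopoietic stem cells (HSC) of irradiated mice given rivenprost, an agonist of the prostaglandin E2 receptor EP4, were compared with HSC of irradiated mice given vehicle. The comparison uses 8 of the 52 RNA libraries of the series, chosen by the treatment and cell labels, with 4 libraries from rivenprost mice and 4 from vehicle mice. Each library comes from 1 mouse, and each group holds 2 males and 2 females. The injection was given 30 min before total-body irradiation with 853 cGy, and bone marrow was taken 1 h after irradiation, so both groups carry the radiation dose. No HSC of non-irradiated mice were measured. HSC were sorted from marrow by surface markers (the lineage-negative SLAM profile). Bulk RNA was sequenced, so fewer cells of a type and less RNA per cell cannot be told apart. The other irradiated HSC groups, with 4 mice each, received rivenprost with the EP3 agonist sulprostone, misoprostol, or sulprostone alone. The labels name no genotype, strain, age or agonist dose for these mice, so those are not given here.

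Prostaglandin E2 acts through a family of G protein-coupled receptors. EP4 is coupled to the stimulatory G protein, which raises cyclic AMP (cAMP). Cyclic AMP activates protein kinase A, which phosphorylates the transcription factor CREB, and CREB and its coactivators switch on a fast set of genes, among them genes for phosphodiesterases and kinases that then dampen the signal. In HSC, prostaglandin E2 is known for effects on survival, homing and engraftment. Total-body irradiation damages DNA and activates the p53 pathway.

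The 4 rivenprost libraries held 35.1 to 49.2 M counts over genes, and the 4 vehicle libraries 34.8 to 42.6 M. Between 12587 and 13210 genes had a count in rivenprost libraries, and between 11726 and 12640 in vehicle libraries. The vehicle library with 11726 genes, replicate 2, stood apart from the rest in a principal component plot and had the lowest median correlation with the others of these 8 (0.849). Among genes used to define HSC, Kit, Ly6a and Slamf1 were present in both groups. Kit, the stem cell factor receptor, was at 337 to 766 CPM (counts scaled to library size) in rivenprost HSC and 351 to 675 CPM in vehicle HSC. Ly6a, the Sca-1 antigen, was at 138.96 to 204 CPM in rivenprost HSC and 176 to 265 CPM in vehicle HSC. Slamf1, the SLAM antigen CD150, was at 14.1 to 26.1 CPM in rivenprost HSC and 7.1 to 33.4 CPM in vehicle HSC. Cd48 and Flt3, read also as markers of lymphoid and myeloid progenitors, were present too. Cd48 was at 17.7 to 43.1 CPM in rivenprost HSC and 19 to 36.9 CPM in vehicle HSC. Flt3 was at 29 to 38.7 CPM in rivenprost HSC and 19.6 to 39.5 CPM in vehicle HSC. Of 43 HSC identity genes 0 passed edgeR's quasi-likelihood test, while 5 had an unadjusted p under 0.05 and DESeq2 called 1. The 5 were 2 higher (4.65% of the list, against 4.16% of all genes tested) and 3 lower (6.98%, against 2.23%). Of 106 measured markers of other cell types, 5 had an unadjusted p under 0.05 and 0 passed edgeR's test. Such markers had counts in both groups. The summed level of 10 erythroid markers was 2904 to 3435 CPM in rivenprost HSC and 2738 to 3217 CPM in vehicle HSC. That of 14 monocyte and macrophage markers was 731 to 906 CPM with rivenprost and 683 to 870 CPM with vehicle. The 7 measured mast cell and basophil markers summed to 329 to 451 CPM with rivenprost and 281 to 369 CPM with vehicle. Their median log2 fold change was 2.62, with 0 called, against 0.003 over all genes. How pure the sorted cells were was not tested. The summed level of 10 endothelial markers was 408 to 456 CPM in rivenprost HSC and 360 to 393 CPM in vehicle HSC, the only one of 12 marker lists whose sums did not overlap. The median log2 fold change of the 10 endothelial markers was 0.84. Cdh5, the defining endothelial cadherin gene, was not analysed here, and the part of these markers in the results was not tested.

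Rivenprost changed 67 of 13566 genes, 0.494% of those tested, at an adjusted p under 0.05 (edgeR's quasi-likelihood test with Benjamini-Hochberg adjustment over all genes). Of these 54 rose, 0.398% of the genes tested, and 13 fell, 0.0958%. The median log2 fold change over all genes was 0.003. Of the raised genes, 20 rose by at least 2 on the log2 scale, 29 by 1 to 2 and 5 by less than 1. The values of the 4 rivenprost and 4 vehicle libraries did not overlap in 64 of the 67 called genes, the exceptions being Hspa1a, Dyrk3 and Il10. The genes were called on these same libraries, so separate groups follow in part from the choice. Over all genes, 464 had every rivenprost library above every vehicle library and 318 had every rivenprost library below. At an unadjusted p under 0.05 there were 868 genes, and DESeq2 called 234, among them all of the 67. Leaving out rivenprost replicate 3, rivenprost replicate 4 or vehicle replicate 3 gave 41, 42 and 41 called genes. For genes of at least 5 CPM the 95% interval of the log2 fold change reached a median of 0.65 to either side. Changes smaller than that were mostly not detectable with these mice. The interval is not adjusted over all genes as the calls are, so larger changes could be missed as well. The authors' deposited table called 86 genes higher and 26 lower, and 66 of the 67 are among them.

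**Figure D1:**
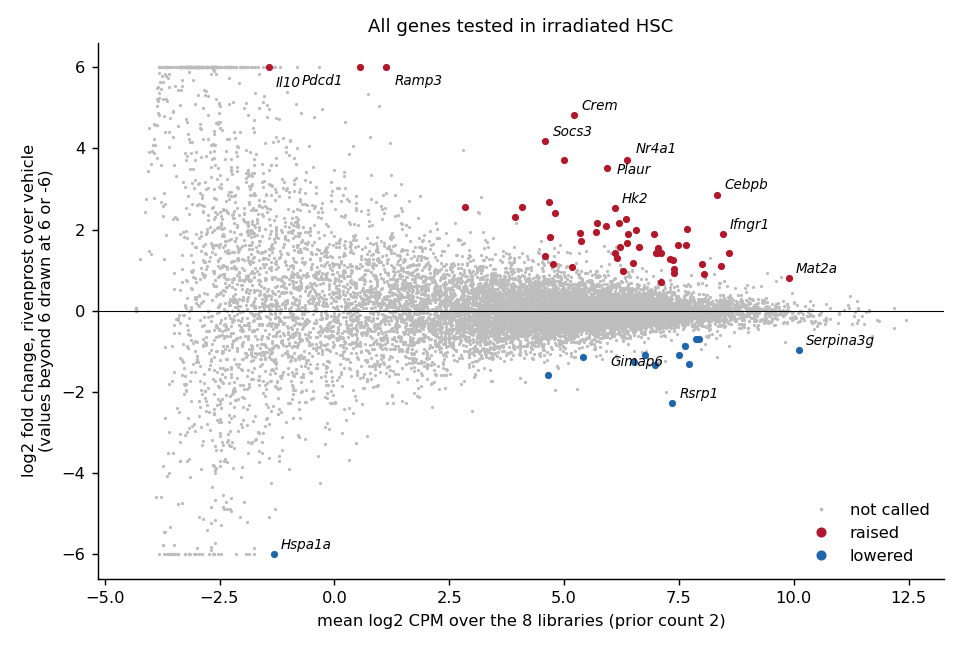
Each point is one of 13566 genes in irradiated HSC, with its mean log2 CPM over the 8 libraries on the horizontal axis and its log2 fold change, rivenprost over vehicle, on the vertical axis; values beyond 6 in size are drawn at the edge. The 54 raised genes (red) reach further from 0 than the 13 lowered genes (blue), and 3 raised genes (Ramp3, Pdcd1 and Il10) and 1 lowered gene (Hspa1a) lie at the edge because vehicle or rivenprost libraries are at or near 0.

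The receptor genes themselves did not pass the test. Ptger4, which encodes EP4, stood at 65.6, 37.9, 60.8 and 49.3 CPM in rivenprost HSC, against 61.1, 111.9, 81.8 and 69 CPM in vehicle HSC (log2 fold change -0.67, SE 0.34, adjusted p = 0.827 by edgeR). The groups overlap, with 1 rivenprost library above the lowest vehicle library and the other 3 below it. Ptger3, which encodes EP3, stood at 109.5, 83.3, 117.3 and 78 CPM in rivenprost HSC, against 86, 177, 103 and 101 CPM in vehicle HSC (-0.27, adjusted p = 1 by edgeR), with overlapping groups. Ptger1 averaged 9.63 ± 2.43 CPM in rivenprost HSC and 7.21 ± 5.85 CPM in vehicle HSC, and Ptger2, which encodes the other receptor coupled to the stimulatory G protein, 1.99 ± 2.36 CPM with rivenprost and 0.32 ± 0.64 CPM with vehicle (SD, n = 4 each). Per kilobase of exon length, vehicle HSC held 57.8 CPM of Ptger3, 24.3 CPM of Ptger4, 3.46 CPM of Ptger1 and 0.085 CPM of Ptger2.

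Downstream of the receptor, the signalling chain was read from a list without Pde4b, Pde4d and Sik1, which are given below as response genes. Of 36 measured genes of the cAMP and protein kinase A machinery 0 passed edgeR's test, 5 had an unadjusted p under 0.05, DESeq2 called 1, and the list's median log2 fold change was 0. The 5 were 4 higher (11.1% of the list, against 4.16% of all genes tested) and 1 lower (2.78%, against 2.23%). Gnas, the stimulatory G protein subunit, averaged 761 ± 84.4 CPM in rivenprost HSC and 769 ± 145 CPM in vehicle HSC. Prkaca, a catalytic subunit of protein kinase A, averaged 102 ± 11.8 CPM with rivenprost and 100 ± 21.2 CPM with vehicle, and Creb1 45.1 ± 11.8 CPM with rivenprost and 66.7 ± 23.8 CPM with vehicle.

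Response genes of this pathway were among those that rose. Of 39 measured cAMP-CREB response genes 11 rose and 0 fell, where 0.398% of all genes tested rose. Their median log2 fold change was 0.74, against 0.003 over all genes. This list, like the others, was chosen with earlier results of these data known, so its shares are not independent of them. At the unadjusted level 22 (56.4%, against 4.16% of all genes tested) had a positive change and 0 a negative change at an unadjusted p under 0.05, and without rivenprost replicate 3 the number that rose was 7. The strongest was Crem, a cAMP-responsive transcription factor gene that also gives rise to the repressor ICER (mm10 chr18:3266354-3337589). It stood at 168, 226, 215 and 177 CPM in rivenprost HSC, against 6.69, 6.98, 10.1 and 5.23 CPM in vehicle HSC (log2 fold change 4.81, SE 0.32, adjusted p = 4.05e-08). The groups were far apart, and each group was tight. Nr4a1, an orphan nuclear receptor of the immediate early response (mm10 chr15:101266846-101274794), stood at 201, 231, 536 and 376 CPM in rivenprost HSC, against 36, 40.8, 10.4 and 14.6 CPM in vehicle HSC (log2 fold change 3.70, SE 0.41, adjusted p = 3.18e-05). Every rivenprost library exceeded every vehicle library, and the values spread widely within both groups. Cebpb, a transcription factor of emergency myelopoiesis (mm10 chr2:167688915-167690432), stood at 916, 777, 1439 and 562 CPM in rivenprost HSC, against 120.98, 129.7, 156 and 81 CPM in vehicle HSC (log2 fold change 2.86, SE 0.31, adjusted p = 3.18e-05). The groups did not overlap, and rivenprost replicate 3 was the highest, as it was for Nr4a1.

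The AP-1 subunit genes Fosl2 and Fos were among them. Fosl2 stood at 204, 219, 319 and 245 CPM in rivenprost HSC, against 61.8, 85.3, 45.4 and 66.7 CPM in vehicle HSC (log2 fold change 1.90, SE 0.32, adjusted p = 0.00339). Fos stood at 28.4, 67.9, 122.9 and 70.3 CPM in rivenprost HSC, against 26.9, 6.88, 9.24 and 13 CPM in vehicle HSC (log2 fold change 2.40, SE 0.47, adjusted p = 0.0163), and its lowest rivenprost library was close to its highest vehicle library. The call of Fos ended without rivenprost replicate 3 and without vehicle replicate 2, 3 or 4 (adjusted p = 0.116, 0.0675, 0.0942 and 0.0616). Rasd1, a Ras-related GTPase gene that responds to glucocorticoids and cAMP, stood at 23, 28.7, 62.8 and 28 CPM in rivenprost HSC, against 5.69, 6.42, 9.01 and 7.29 CPM in vehicle HSC (log2 fold change 2.30, SE 0.36, adjusted p = 0.00171), highest in rivenprost replicate 3. A list of 39 immediate early genes shares Fos, Fosl2, Nr4a1 and Dusp5 with the first. At an unadjusted p under 0.05, 16 of these 39 genes were higher (41%, against 4.16% of all genes tested) and 1 lower. By edgeR's adjusted test 5 of them rose and 0 fell (median log2 fold change 0.69), where 0.398% of all genes tested rose. The number that rose was 3 without rivenprost replicate 3 or without vehicle replicate 3. The fifth was Csrnp1, a nuclear protein gene, at 260.1 ± 70.2 CPM in rivenprost HSC and 107 ± 44.2 CPM in vehicle HSC (SD, n = 4 each; log2 fold change 1.28, adjusted p = 0.0166, and 0.103 without rivenprost replicate 3 or without vehicle replicate 3). The most abundant members, Junb, Btg2 and Dusp2, did not pass, at log2 fold changes of 0.43, 0.73 and 0.94 (adjusted p = 0.797, 0.378 and 0.0786), and Egr1 was at 0.54 (adjusted p of 1).

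Genes whose products dampen the signal were among those that rose. Pde4b and Pde4d encode phosphodiesterases that break down cAMP. Pde4b stood at 725, 505, 777 and 533 CPM in rivenprost HSC, against 277, 234, 237 and 195 CPM in vehicle HSC (log2 fold change 1.41, SE 0.20, adjusted p = 0.000741), with no overlap. Pde4d averaged 39.1 ± 7.82 CPM in rivenprost HSC and 15.1 ± 3.22 CPM in vehicle HSC (SD, n = 4 each; 1.36, adjusted p = 0.0219). Sik1, a kinase that restrains the CREB coactivators, averaged 139.3 ± 25.3 CPM with rivenprost and 62 ± 16.3 CPM with vehicle (1.18, adjusted p = 0.019). The calls of both Pde4d and Sik1 ended without rivenprost replicate 3 (adjusted p = 0.0938 and 0.1), without rivenprost replicate 4 (0.152 and 0.0861) and without vehicle replicate 1 (0.0777 and 0.0593). That of Pde4d also ended without vehicle replicate 3 (0.089), and that of Sik1 without rivenprost replicate 2 (0.055) and vehicle replicate 4 (0.0877). Dusp5, a nuclear phosphatase that inactivates the MAP kinase ERK, stood at 101, 114.7, 178 and 126.4 CPM in rivenprost HSC, against 43.5, 38.2, 22.8 and 17.9 CPM in vehicle HSC (log2 fold change 2.09, SE 0.28, adjusted p = 0.000321). It was the only one of 19 MAP kinase phosphatases and feedback inhibitors that passed, where 0.494% of all genes tested passed. The number was 3 without vehicle replicate 2, and the median of the list was 0.53. Among the abundant members that did not pass were Dusp2, at 992 ± 210 CPM in rivenprost HSC and 514 ± 203 CPM in vehicle HSC (adjusted p = 0.0786), and Dusp1, at 491 ± 137.9 CPM with rivenprost and 197 ± 100.01 CPM with vehicle (adjusted p = 0.122).

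**Figure D2:**
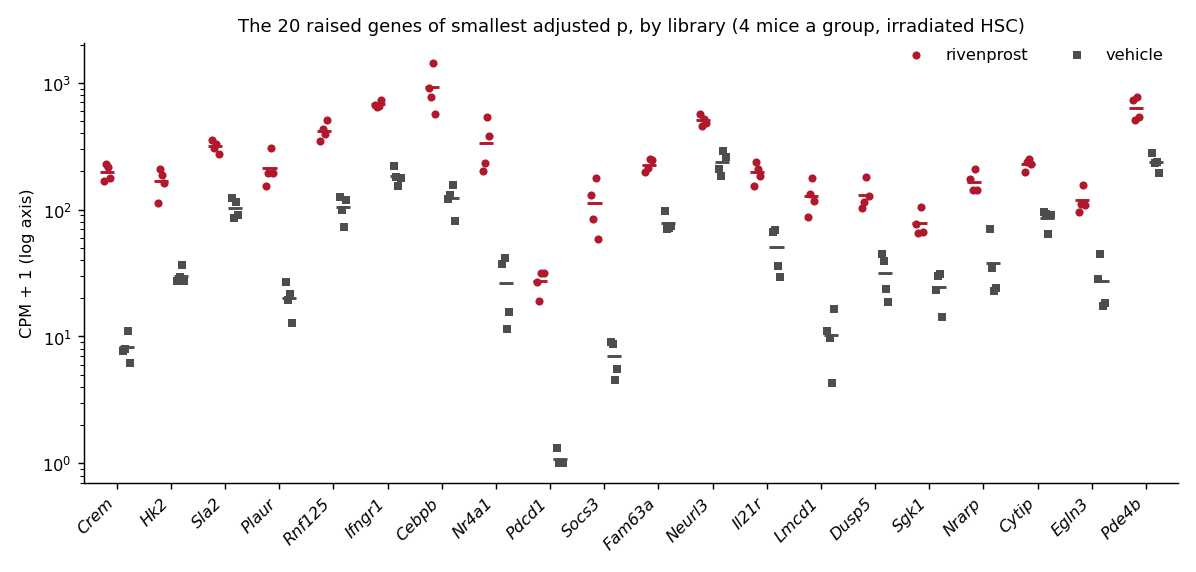
Each point is 1 library (red circles, 4 rivenprost mice; grey squares, 4 vehicle mice) and each bar a group mean, on a log axis of CPM plus 1, for the 20 raised genes of smallest adjusted p. All 20 genes have every rivenprost library above every vehicle library, from Crem, at 168 to 226 CPM against 5.23 to 10.1 CPM, to Pde4b, at 505 to 777 CPM against 195 to 277 CPM.

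The stretches upstream of raised genes were read for the CREB motif, since the members rose together. RefSeq promoter windows of GRCm38.p6, the 250 bases before each annotated start, were found for 43 of the 54 raised genes, 12 of the 13 lowered genes and 10285 of all 13566 measured genes. The full palindrome TGACGTCA, which reads the same on both strands, lay in 1 of 43 raised genes (2.33%), 0 of 12 lowered genes (0%) and 305 of 10285 measured genes (2.97%). The core TGACG, searched on both strands so that CGTCA counts too and counted also inside the palindrome, lay in 25 of 43 raised genes (58.1%), 1 of 12 lowered genes (8.33%) and 3103 of 10285 measured genes (30.2%). Raised genes had more windows per gene (a mean of 1.53, against 1.08 for lowered and 1.27 for all measured genes), so the share was also taken per window. It was 48.5% of 66 windows of raised genes, 7.69% of 13 windows of lowered genes and 26% of 13051 windows of measured genes, at a mean GC content of 59.6%, 59% and 59.6%. These are counts of letters, with no test and no claim of binding. Windows of a gene can overlap, as for Anks1 and Ccrl2, so the same core can count again in the share per window. Of the 11 raised cAMP-CREB response genes, 8 had a window and 6 of these held the core. Fosl2 and Pde4d held none, and Crem, Sik1 and Rasd1 were not in the promoter table used. A gene was counted if any of its windows held the core. Vegfa held it at chr17:46025164-46025413 but not in its window at chr17:46032378-46032627. The windows of 4 raised genes that hold a motif are printed to show the letters found, all on the plus strand, with the motif in capitals: Lmcd1, the gene with the palindrome (chr6:112273508-112273757), and 3 cAMP-CREB response genes with the core, Nr4a1 (chr15:101266596-101266845), Fos (chr12:85473640-85473889) and Cebpb (chr2:167688665-167688914).
Lmcd1: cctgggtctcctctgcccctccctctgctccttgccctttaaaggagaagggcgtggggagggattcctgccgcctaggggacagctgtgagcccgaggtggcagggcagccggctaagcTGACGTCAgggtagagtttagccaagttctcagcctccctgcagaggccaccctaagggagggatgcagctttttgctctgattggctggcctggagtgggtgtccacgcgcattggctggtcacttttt
Nr4a1: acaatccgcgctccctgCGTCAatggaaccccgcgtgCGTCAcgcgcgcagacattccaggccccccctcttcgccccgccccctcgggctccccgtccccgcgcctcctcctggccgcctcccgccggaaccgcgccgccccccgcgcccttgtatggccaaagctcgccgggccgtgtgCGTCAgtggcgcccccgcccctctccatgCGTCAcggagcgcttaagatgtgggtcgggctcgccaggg
Fos: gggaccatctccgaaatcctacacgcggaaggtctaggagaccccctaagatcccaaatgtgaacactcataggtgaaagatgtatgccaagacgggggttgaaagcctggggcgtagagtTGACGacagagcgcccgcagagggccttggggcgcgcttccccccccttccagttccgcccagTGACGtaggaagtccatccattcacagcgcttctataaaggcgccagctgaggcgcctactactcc
Cebpb: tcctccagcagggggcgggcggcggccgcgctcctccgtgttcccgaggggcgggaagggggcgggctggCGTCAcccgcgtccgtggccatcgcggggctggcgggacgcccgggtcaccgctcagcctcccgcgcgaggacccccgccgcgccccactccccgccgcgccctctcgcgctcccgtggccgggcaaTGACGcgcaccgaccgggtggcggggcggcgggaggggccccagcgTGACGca
The cores start 233, 213, 69 and 40 bases before the start of Nr4a1, 66 bases (the nearer one) before that of Fos, and 180, 53 and 7 bases before that of Cebpb, while the palindrome of Lmcd1 starts 130 bases before its start.

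The other raised genes are given by what their products do, an order made after their values were seen that is no tested list. Plaur, the receptor of the protease urokinase (mm10 chr7:24462500-24475873), stood at 153, 193, 304 and 195 CPM in rivenprost HSC, against 26, 18.3, 20.6 and 11.7 CPM in vehicle HSC (log2 fold change 3.51, SE 0.33, adjusted p = 4.45e-06). Ifngr1, the ligand-binding chain of the interferon gamma receptor (mm10 chr10:19591958-19610225), stood at 668, 638, 655 and 737 CPM in rivenprost HSC, against 221, 181, 153 and 176 CPM in vehicle HSC (log2 fold change 1.89, SE 0.18, adjusted p = 6.09e-06), one of the most even changes within groups. Il21r, the receptor of interleukin 21, stood at 152, 236, 209.7 and 185 CPM in rivenprost HSC, against 66.2, 68.1, 35.1 and 28.5 CPM in vehicle HSC (log2 fold change 1.98, SE 0.25, adjusted p = 0.000206). Each of these 3 genes had every rivenprost library above every vehicle library. The lectin receptor gene Clec4e (2.56, adjusted p = 0.00321), the Wnt receptor gene Fzd9 (1.81, adjusted p = 0.00327), the atypical chemokine receptor gene Ccrl2 (1.63, adjusted p = 0.00339) and the orphan receptor gene Gpr146 (2.67, adjusted p = 0.00286) rose as well, these values being log2 fold changes. S1pr1, the sphingosine 1-phosphate receptor that guides cells out of marrow and lymphoid tissue, averaged 120.3 ± 22.4 CPM in rivenprost HSC and 45.3 ± 28.9 CPM in vehicle HSC (SD, n = 4 each; 1.42, adjusted p = 0.048). Its call was near the threshold and ended without any rivenprost library or without vehicle replicate 1, 3 or 4 (adjusted p = 0.0747 to 0.235).

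Ramp3, Pdcd1 and Il10 had no or almost no counts in vehicle HSC, so no fitted fold is given for them. Ramp3, a partner protein of receptors of the calcitonin family (mm10 chr11:6658533-6677475), had 90.8, 106, 96.4 and 80.2 CPM in rivenprost HSC and 0 counts in all 4 vehicle libraries, at least 4930-fold higher with a floor of 3 counts over the 4 vehicle libraries (adjusted p = 0.000844). It was the only one of 16 RAMP, calcitonin-family receptor and RGS genes that passed, where 0.494% of all genes tested passed. Pdcd1, the inhibitory receptor PD-1 (mm10 chr1:94038305-94052553), had 25.7, 18.2, 30.9 and 30.8 CPM in rivenprost HSC, against 0.311 CPM, or 13 counts, in vehicle replicate 1 and 0 counts in the other vehicle libraries (adjusted p = 4.62e-05). It was the only one of 20 immune checkpoint genes that passed, against the same 0.494% of all genes. Il10, an anti-inflammatory cytokine, had 0 counts in rivenprost replicate 1 and 10.5, 9.74 and 10.3 CPM in the other rivenprost libraries, against 0 counts in all 4 vehicle libraries (adjusted p = 0.0471), at least 403-fold higher by the same floor. The call of Il10 ended without rivenprost replicate 2, 3 or 4 (adjusted p = 0.0946, 0.102 and 0.112) and without any single vehicle library (0.106 to 0.168).

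Socs3, an inhibitor of JAK-STAT signalling by cytokine receptors (mm10 chr11:117966087-117969366), stood at 128.4, 82.8, 178 and 57.2 CPM in rivenprost HSC, against 7.98, 7.77, 3.56 and 4.56 CPM in vehicle HSC (log2 fold change 4.17, SE 0.53, adjusted p = 0.000204). The groups lay far apart, and the rivenprost libraries spread widely. Of 32 genes of cytokine signalling and its inhibitors Socs3 and Il10 rose and 0 fell (median log2 fold change 0.21), where 0.398% of all genes tested rose. Sla2, an adaptor that dampens signalling by antigen receptors (mm10 chr2:156872922-156887078), stood at 354, 304, 328 and 275 CPM in rivenprost HSC, against 122.3, 85.6, 113.2 and 89.3 CPM in vehicle HSC (log2 fold change 1.63, SE 0.14, adjusted p = 1.25e-06). Rnf125, a ubiquitin ligase (mm10 chr18:20944625-20983848), stood at 345, 433, 392 and 506 CPM in rivenprost HSC, against 124.4, 98.5, 72.5 and 117.3 CPM in vehicle HSC (log2 fold change 2.02, SE 0.19, adjusted p = 4.73e-06). Cytip, an interactor of cytohesins in blood cells, stood at 198, 235, 252 and 227 CPM in rivenprost HSC, against 95.1, 91.2, 62.7 and 90.5 CPM in vehicle HSC (log2 fold change 1.42, SE 0.20, adjusted p = 0.000569). None of these genes had overlapping groups. Of 39 NF-kB and inflammatory genes 1 rose, Plaur, and of 39 interferon-stimulated genes 0 passed edgeR's test, 1 having an unadjusted p under 0.05.

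Metabolic and oxygen-response genes changed at a few places. Hk2, a hexokinase of glycolysis (mm10 chr6:82725027-82774454), stood at 111.6, 208, 188 and 160.1 CPM in rivenprost HSC, against 26.4, 28.3, 35.3 and 26.3 CPM in vehicle HSC (log2 fold change 2.52, SE 0.21, adjusted p = 1.25e-06). It was the only one of 34 glycolysis and glucose uptake genes that passed, where 0.494% of all genes tested passed. The number was 2 without vehicle replicate 1 or 2. Abundant glycolytic genes did not pass: Ldha averaged 2453 ± 272 CPM in rivenprost HSC and 2227 ± 239 CPM in vehicle HSC, and Pkm 971 ± 71.3 CPM with rivenprost and 916 ± 160 CPM with vehicle (SD, n = 4 each; adjusted p of 1 for both). Of 29 hypoxia response genes 3 rose and 0 fell (median log2 fold change 0.24), where 0.398% of all genes tested rose. At an unadjusted p under 0.05, 10 of the 29 were higher (34.5%, against 4.16% of all genes tested) and 0 lower. The 3 called genes were Hk2, Egln3 and Vegfa. Egln3, an oxygen-sensing prolyl hydroxylase, stood at 94.2, 109.8, 157 and 108 CPM in rivenprost HSC, against 27.5, 43.4, 16.3 and 17.5 CPM in vehicle HSC (log2 fold change 2.16, SE 0.31, adjusted p = 0.00073). Vegfa, the vascular growth factor, averaged 105 ± 20.1 CPM in rivenprost HSC and 27.5 ± 10.5 CPM in vehicle HSC (1.94, adjusted p = 0.0236), a call that ended without rivenprost replicate 3 or 4 or vehicle replicate 3 or 4 (adjusted p = 0.0815, 0.112, 0.128 and 0.109). Mat2a, which makes the methyl donor S-adenosylmethionine, was the most abundant raised gene, at 1280, 1323, 1129 and 1309 CPM in rivenprost HSC, against 850.3, 703, 592 and 738 CPM in vehicle HSC (log2 fold change 0.80, SE 0.14, adjusted p = 0.00685). Nceh1, a cholesterol ester hydrolase gene, rose by 0.90 on the log2 scale (adjusted p = 0.0109, and 0.0552, 0.0547 and 0.0577 without rivenprost replicate 4, vehicle replicate 3 or vehicle replicate 4).

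Sgk1, a kinase induced by serum and glucocorticoids, stood at 75.3, 64.9, 103 and 65.9 CPM in rivenprost HSC, against 22.3, 28.8, 30 and 13.2 CPM in vehicle HSC (log2 fold change 1.71, SE 0.24, adjusted p = 0.000519). It was the only one of 22 glucocorticoid-type response genes that passed, with a list median of 0.52, and the number was 2 without vehicle replicate 2. Of all genes tested 0.494% passed. At an unadjusted p under 0.05, 6 of the 22 were higher (27.3%, against 4.16% of all genes tested) and 0 lower. Nrarp, a feedback inhibitor of Notch signalling, stood at 173, 140.9, 207 and 141.3 CPM in rivenprost HSC, against 69.1, 33.9, 21.8 and 23.3 CPM in vehicle HSC (log2 fold change 2.17, SE 0.31, adjusted p = 0.000569). Lmcd1, a LIM-domain transcriptional cofactor, stood at 85.8, 131.7, 175 and 116.3 CPM in rivenprost HSC, against 10, 8.66, 3.3 and 15.4 CPM in vehicle HSC (log2 fold change 3.72, SE 0.48, adjusted p = 0.000221). These 3 genes also had no overlap between groups. Cirbp, a cold-inducible RNA-binding protein gene (log2 fold change 1.43, adjusted p = 0.00499), Srsf5, a splicing factor gene (1.16, adjusted p = 0.000872), and Ddx3x, an RNA helicase gene (0.92, adjusted p = 0.00113), rose, with Ddx3x at 217, 215, 213 and 288 CPM in rivenprost HSC, against 107, 110.5, 126.9 and 146 CPM in vehicle HSC. Foxo1, a transcription factor restrained by insulin signalling, averaged 116.6 ± 15.3 CPM in rivenprost HSC and 47.5 ± 20.2 CPM in vehicle HSC (1.30, adjusted p = 0.0311), and its call ended without any rivenprost library or without vehicle replicate 3 or 4 (adjusted p = 0.055 to 0.14). Further raised genes with values that did not overlap were Fam63a, a deubiquitinase gene, at 198, 213, 248 and 243 CPM in rivenprost HSC, against 97.4, 69.1, 71 and 73.5 CPM in vehicle HSC (log2 fold change 1.54, SE 0.20, adjusted p = 0.000204), and Neurl3, a ubiquitin ligase gene, at 566, 456, 519.9 and 480.4 CPM in rivenprost HSC, against 207, 184, 288 and 258 CPM in vehicle HSC (log2 fold change 1.11, SE 0.14, adjusted p = 0.000206). Txndc11 (1.66, adjusted p = 0.000844), Cables1 (2.25, adjusted p = 0.00132), Rab27b (1.58, adjusted p = 0.00132) and Nek6 (1.90, adjusted p = 0.00245) rose too, the first value of each being the log2 fold change.

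The 13 lowered genes fell by 0.70 to 2.28 on the log2 scale, with Hspa1a, at or near 0 with rivenprost, left aside. Gimap6, of a family of GTPases of lymphocyte and stem cell survival (mm10 chr6:48701583-48708244), stood at 87.1, 125.9, 133.2 and 158 CPM in rivenprost HSC, against 249.6, 241, 289 and 296 CPM in vehicle HSC (log2 fold change -1.10, SE 0.17, adjusted p = 0.00146), and it was the only lowered gene called with each of the 8 libraries left out in turn. Of 8 GIMAP genes 2 fell, where 0.0958% of all genes tested fell. The second was Gimap1, at 148 ± 13.9 CPM in rivenprost HSC and 272 ± 51.5 CPM in vehicle HSC (-0.88, adjusted p = 0.0247). The list median was -0.49, and Gimap5 was at 69.7 ± 10.9 CPM with rivenprost and 103 ± 18.2 CPM with vehicle (adjusted p = 0.699). The call of Gimap1 ended without any rivenprost library (adjusted p = 0.055 to 0.116) and without vehicle replicate 3 or 4 (0.157 and 0.0709). Gabarapl1, of the autophagy machinery, stood at 177, 191, 199 and 169 CPM in rivenprost HSC, against 287, 296, 319.7 and 289 CPM in vehicle HSC (log2 fold change -0.70, SE 0.13, adjusted p = 0.00774, and 0.0514 without rivenprost replicate 4). Hhex, a homeobox factor of blood and endothelial development, stood at 64.5, 94.1, 74.2 and 68.6 CPM in rivenprost HSC, against 167, 140.2, 167 and 151 CPM in vehicle HSC (log2 fold change -1.08, SE 0.21, adjusted p = 0.0163). Its call ended without rivenprost replicate 1 or 4 or vehicle replicate 1 or 3 (adjusted p = 0.0648, 0.0967, 0.0574 and 0.089). Both genes had every rivenprost library below every vehicle library.

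Cited2, a transcriptional cofactor needed for HSC maintenance, stood at 197, 145, 136.97 and 78.9 CPM in rivenprost HSC, against 280.4, 359, 427 and 275 CPM in vehicle HSC (log2 fold change -1.30, SE 0.28, adjusted p = 0.037). It fell with no overlap, and the call ended without any single library but vehicle replicate 1 (adjusted p = 0.055 to 0.202). Serpina3g, a serine protease inhibitor gene of a family of close copies, whose reads may be shared with them, stood at 1013, 853, 726 and 629 CPM in rivenprost HSC, against 1505, 1127, 2052 and 1649 CPM in vehicle HSC (log2 fold change -0.97, SE 0.19, adjusted p = 0.02). Leaving out rivenprost replicate 3 or 4 or vehicle replicate 3 or 4 ended that call (adjusted p = 0.122, 0.117, 0.118 and 0.0888). Zfp322a, a zinc finger gene, stood at 12.5, 14, 15.5 and 17.4 CPM in rivenprost HSC, against 54.8, 46.7, 29.8 and 45.9 CPM in vehicle HSC (log2 fold change -1.58, SE 0.30, adjusted p = 0.0133), a call that ended without rivenprost replicate 1, 2 or 3 or vehicle replicate 1 (0.0648, 0.0578, 0.052 and 0.0536). Trim47, a ubiquitin ligase gene, stood at 89.5, 58.9, 100.2 and 78.7 CPM in rivenprost HSC, against 255, 266, 153 and 141.7 CPM in vehicle HSC (log2 fold change -1.33, SE 0.26, adjusted p = 0.0177), a call that ended without rivenprost replicate 1, 2 or 4 or vehicle replicate 1 or 2 (0.0544, 0.0946, 0.0778, 0.0705 and 0.0719). In all of these the rivenprost libraries lay below the vehicle libraries.

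Called RNA-processing genes went in both directions, and more of the list was lower than higher. Of 36 CLK, SR-protein and nuclear RNA-processing genes 1 rose (Srsf5) and 2 fell (Rsrp1 and Rbm39), with a list median of -0.24. Of all genes tested 0.398% rose and 0.0958% fell. At an unadjusted p under 0.05, 3 of the 36 were higher (8.33%, against 4.16% of all genes tested) and 9 lower (25%, against 2.23%). Rsrp1, an arginine and serine rich protein gene, stood at 144, 69.2, 65.2 and 52.7 CPM in rivenprost HSC, against 158, 289, 655 and 491 CPM in vehicle HSC (log2 fold change -2.28, SE 0.48, adjusted p = 0.0311), where the vehicle libraries spread widely. Rbm39, a splicing factor gene, fell by 0.70 on the log2 scale (adjusted p = 0.0435). The calls of Rsrp1 and Rbm39 both ended without rivenprost replicate 3 (adjusted p = 0.159 and 0.122), rivenprost replicate 4 (0.179 and 0.202), vehicle replicate 3 (0.222 and 0.235) or vehicle replicate 4 (0.101 and 0.0888). That of Rsrp1 ended also without rivenprost replicate 2 (0.141), and that of Rbm39 without rivenprost replicate 1 or vehicle replicate 2 (0.205 and 0.0759). Hspa1a, an inducible heat shock protein gene with a near-identical copy, had 0.081 CPM in rivenprost replicate 1 and 0 counts in the other rivenprost libraries, against 6.86, 0, 22.4 and 4.94 CPM in vehicle HSC (adjusted p = 0.0313), so the groups overlap at 0. Its call ended without any rivenprost library (adjusted p = 0.124 to 0.171) and without vehicle replicate 3 or 4 (0.0942 and 0.109). It was the only one of 24 heat shock and chaperone genes that passed, where 0.494% of all genes tested passed. Fam212a fell by 1.25 and Trmt1l by 1.13 on the log2 scale (adjusted p = 0.0307 and 0.0494), and both calls ended without any rivenprost library and without vehicle replicate 3 or 4 (adjusted p = 0.0627 to 0.183 for Fam212a, also without vehicle replicate 2, and 0.106 to 0.222 for Trmt1l, also without vehicle replicate 1).

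**Figure D3:**
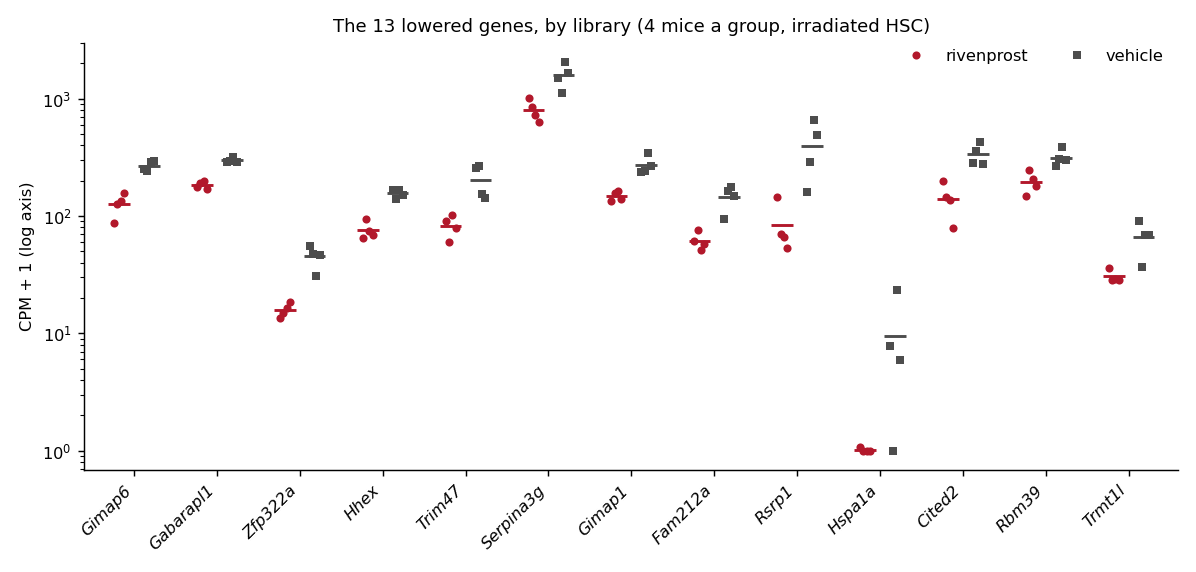
Each point is 1 library (red circles, 4 rivenprost mice; grey squares, 4 vehicle mice) and each bar a group mean, on a log axis of CPM plus 1, for the 13 lowered genes. In 12 of the 13 genes every rivenprost library lies below every vehicle library; Hspa1a overlaps because 1 vehicle library is at 0.

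Genes of the radiation response, of survival and of stem cell state were read from lists, also chosen with earlier results of these data known. Of 47 p53 targets 1 rose and 0 fell, with a median log2 fold change of -0.35. At an unadjusted p under 0.05, 3 were higher (6.38%, against 4.16% of all genes tested) and 15 lower (31.9%, against 2.23%), and DESeq2 called 3 lower. The member that rose was Dyrk3, a kinase of stress granule dissolution, at 249 ± 53.7 CPM in rivenprost HSC and 124.8 ± 50.7 CPM in vehicle HSC (adjusted p = 0.0451), with overlapping groups and a call that ended without any rivenprost library (0.0889 to 0.202) and without vehicle replicate 2 or 3 (0.153 and 0.223). The abundant p53 targets did not pass. Cdkn1a, the cell cycle inhibitor p21, averaged 763 ± 165 CPM in rivenprost HSC and 751 ± 388 CPM in vehicle HSC, Gdf15, a stress cytokine gene, 695 ± 88 CPM with rivenprost and 1190 ± 234 CPM with vehicle (adjusted p = 0.772), and Btg2, an antiproliferative gene, 1030 ± 247 CPM with rivenprost and 620 ± 61.9 CPM with vehicle (adjusted p = 0.378).

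Of 35 BCL2-family, IAP and caspase genes 0 passed edgeR's test, 5 had an unadjusted p under 0.05 and DESeq2 called 1. The 5 were 3 higher (8.57% of the list, against 4.16% of all genes tested) and 2 lower (5.71%, against 2.23%). Mcl1, a survival factor HSC depend on, averaged 590 ± 86.6 CPM in rivenprost HSC and 424 ± 88.2 CPM in vehicle HSC (log2 fold change 0.47, adjusted p = 0.431). Of 40 DNA damage signalling and repair genes 0 passed edgeR's test or had an unadjusted p under 0.05. Of 28 mitotic and 28 S-phase genes 0 passed edgeR's test, 1 of each list had an unadjusted p under 0.05, and DESeq2 called 1 mitotic gene. Mcm6, of the replication helicase, averaged 636 ± 86.7 CPM in rivenprost HSC and 619 ± 106 CPM in vehicle HSC, and Cdk1, the mitotic kinase, 170 ± 23.6 CPM with rivenprost and 180 ± 20.5 CPM with vehicle. Of 41 genes of HSC quiescence, retention and adhesion 2 rose (Foxo1 and S1pr1) and 1 fell (Cited2), the calls described above as ending without single libraries. Of all genes tested 0.398% rose and 0.0958% fell.

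**Figure D4:**
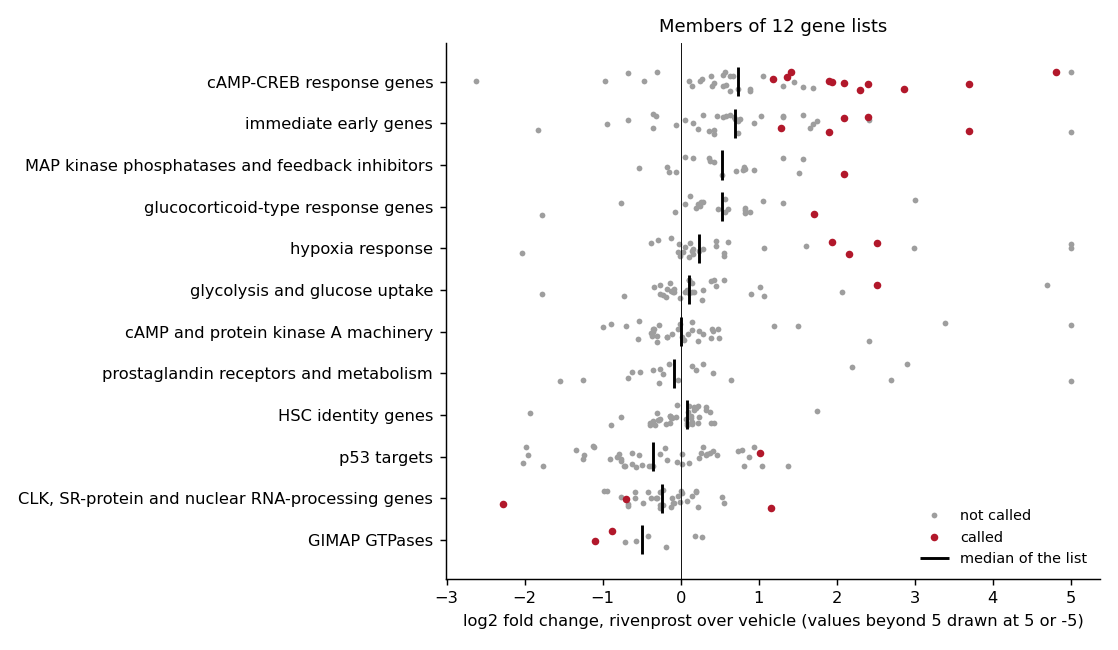
Each point is a measured member of 1 of 12 gene lists, placed at its log2 fold change, rivenprost over vehicle, with values beyond 5 in size drawn at 5; red points passed the test and black bars are list medians. The cAMP-CREB response genes (median 0.74, 11 of 39 called) and the immediate early genes (median 0.69, 5 of 39 called) lie to the right of 0, while the cAMP and protein kinase A machinery, the prostaglandin receptors and the HSC identity genes have medians of 0, -0.09 and 0.08 with none called.

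The same 67 genes were read after the other agonists, whose relative doses are unknown and whose comparisons with vehicle share the 4 vehicle libraries. The median log2 fold change of the 54 raised genes was 1.76 with rivenprost, 1.57 with both agonists, 1.27 with misoprostol and 0.49 with sulprostone. The median of the 13 lowered genes was -1.13 with rivenprost, -0.93 with both agonists, -0.76 with misoprostol and -0.21 with sulprostone. Against vehicle, edgeR called 74 genes with both agonists (0.545% of those tested, 0.405% higher and 0.14% lower), 34 with misoprostol (0.251%, 0.221% higher and 0.0295% lower) and 2 with sulprostone (0.0147%, both higher). The genes were chosen in the rivenprost comparison, so its medians are not independent of the choice. Crem averaged 197 ± 28.5 CPM in rivenprost HSC, 188 ± 89.5 CPM with both agonists, 84.5 ± 30.8 CPM with misoprostol, 32 ± 12.7 CPM with sulprostone and 7.24 ± 2.03 CPM with vehicle (SD, n = 4 each). Socs3 averaged 111 ± 53 CPM with rivenprost, 239.7 ± 27.2 CPM with both agonists, 147 ± 96.1 CPM with misoprostol, 17.3 ± 13.4 CPM with sulprostone and 5.97 ± 2.24 CPM with vehicle. Fos averaged 72.4 ± 38.8 CPM with rivenprost, 306 ± 109 CPM with both agonists, 120.1 ± 43.9 CPM with misoprostol, 35.2 ± 14.5 CPM with sulprostone and 14 ± 8.98 CPM with vehicle. Rasd1 averaged 35.7 ± 18.3 CPM with rivenprost, 92.1 ± 32.2 CPM with both agonists, 52.6 ± 28.2 CPM with misoprostol, 14.3 ± 3.03 CPM with sulprostone and 7.1 ± 1.43 CPM with vehicle. Crem had its highest mean with rivenprost, and Socs3, Fos and Rasd1 with both agonists.

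Direct tests between agonists do not use vehicle. Rivenprost and sulprostone HSC differed at 45 genes, 0.332% of those tested (40 higher and 5 lower with rivenprost, edgeR), and 35 of the 67 genes were among them in the same direction (both comparisons use the same rivenprost libraries). Crem was higher with rivenprost by 2.71 on the log2 scale (adjusted p = 0.000102), Srsf5 by 1.59 (0.000102), Hk2 by 1.85 (0.000131), Plaur by 2.59 and Neurl3 by 1.15 (0.000239 each). Fos, Fosl2, Rasd1 and Serpina3g did not pass in that test (adjusted p = 0.73, 0.582, 0.226 and 0.999). The number of genes was 21 without rivenprost replicate 3 or without rivenprost replicate 4, 24 without sulprostone replicate 4, 27 without rivenprost replicate 1 or without sulprostone replicate 2, and 29 without rivenprost replicate 2 or without sulprostone replicate 3. Rivenprost and misoprostol HSC differed at 0 genes by edgeR (0%), 443 genes having an unadjusted p under 0.05, and at 77 by DESeq2. Rivenprost HSC and HSC with both agonists differed at 0 genes by edgeR (0%), 372 having an unadjusted p under 0.05, and at 63 by DESeq2. For Crem the difference was 1.29 between rivenprost and misoprostol (95% interval 0.71 to 1.87, adjusted p = 0.681) and 0.11 between rivenprost and both agonists (-0.45 to 0.68, adjusted p of 1). For Socs3 these differences were -0.39 (-1.35 to 0.56) and -1.14 (-2.11 to -0.17), with an adjusted p of 1 for both. These intervals leave room for differences of over 1 on the log2 scale in some genes.

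**Figure D5:**
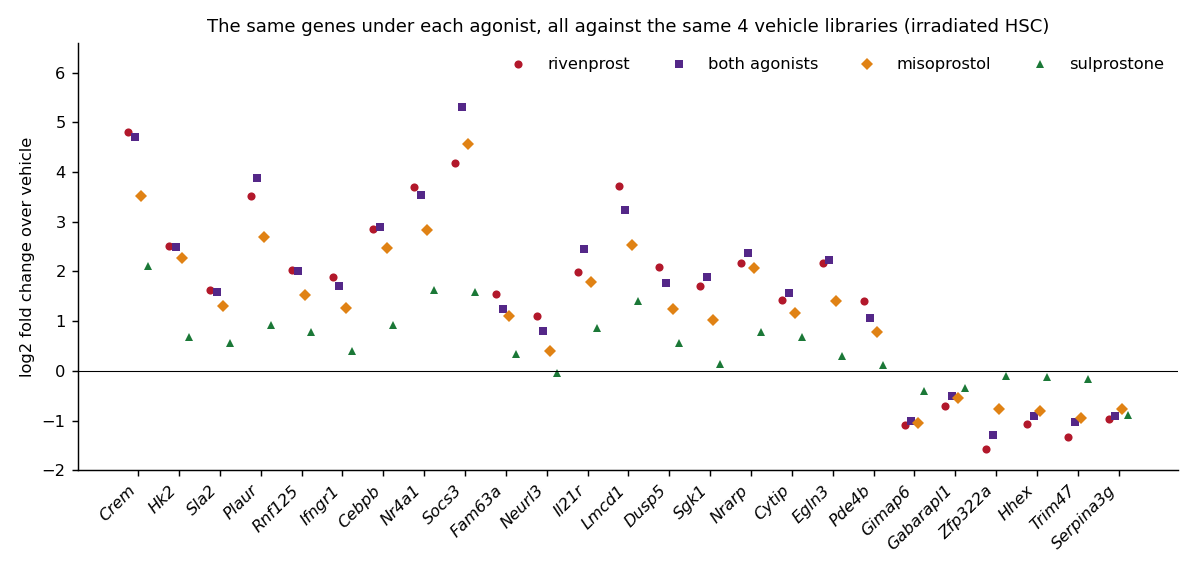
Log2 fold changes over the same 4 vehicle libraries for raised and lowered genes of smallest adjusted p (Pdcd1, at 0 counts in most vehicle libraries, is left out), with rivenprost (circles), both agonists (squares), misoprostol (diamonds) and sulprostone (triangles). Sulprostone values lie nearest 0 in most genes, while for Socs3 the value with both agonists is the highest.

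Rivenprost was also compared with vehicle in bone marrow stroma of irradiated mice, enriched for cells without the blood markers CD45 and Ter119 and made into libraries with another kit. There 172 of 15168 genes were called, 1.13% of those tested (0.903% raised and 0.231% lowered, by edgeR), and the number was 49, 56, 81, 94 and 95 without stroma rivenprost replicate 3, vehicle replicate 3, vehicle replicate 2, vehicle replicate 1 and rivenprost replicate 2. With sets of consecutive mouse numbers as a block, an alternative chosen after seeing the data, 379 were called. All 67 HSC genes were in the stroma table, and 16 were called there in the same direction, 23.9% of the HSC calls and 9.3% of the stroma calls. They were Crem, Hk2, Rnf125, Nr4a1, Socs3, Srsf5, Cables1, Rasd1, Fosl2, Cirbp, Mat2a, Pde4d, Vegfa and S1pr1, which rose, and Zfp322a and Trmt1l, which fell. Crem in stroma averaged 47.1 ± 26.8 CPM with rivenprost and 11.9 ± 0.943 CPM with vehicle (log2 fold change 1.92, SE 0.29, adjusted p = 0.000649), beside 4.81 in HSC. Rnf125 averaged 58.5 ± 8.96 CPM with rivenprost and 16.8 ± 1.21 CPM with vehicle (log2 fold change 1.80, SE 0.16, adjusted p = 3.71e-07), beside 2.02 in HSC. Of the 54 genes raised in HSC, 45 had a positive log2 fold change in stroma. Their median there was 0.38, against 0.036 over all genes tested in stroma. Plaur, Lmcd1, Egln3 and Pde4b were at log2 fold changes of 0.11, -0.22, 0.10 and 0.08 in stroma and did not pass. The difference between the fractions was not tested.

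Male and female mice were compared for their change with rivenprost in HSC, with 2 mice in each combination. The difference between the sexes passed at 0 genes by edgeR (0%), with 299 genes at an unadjusted p under 0.05 and 39 called by DESeq2. Without vehicle replicate 4, which leaves 1 vehicle female, edgeR called 66. The smallest p belonged to Raver2, an RNA-binding protein gene, at -7.92 on the log2 scale, males minus females (SE 1.46, adjusted p = 0.745 by edgeR). Raver2 did not pass, and with 2 mice in each combination its value is not read as the size of a sex difference.

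Across all 20 HSC libraries, the genes most similar to Crem in log2 CPM were Sla2 (Pearson r = 0.96), Ifngr1 (0.947), Plaur (0.944), Hk2 (0.939) and Rnf125 (0.935). The libraries fall into treatment groups that set much of this likeness, so it is a description only.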

How the data were processed

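Per the submitters' processing notes, FastQC 0.11.5, STAR 2.5, featureCounts of Subread 1.5.1 and edgeR 3.36.0 were used with the mouse build mm10; per the labels' protocols, 1 ng of RNA (RIN above 7) went into each HSC library (SMART-Seq v4, Nextera XT). Whether counting used strand is not given in the sources, so overlapping or antisense genes may share reads. The deposited raw counts per gene were analysed as they stand; the 52 columns holding log2 CPM were left out, and the authors' deposited log2 fold changes and adjusted p-values (FDR) served only where named.

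Groups follow the labels. Counts were tested with edgeR 4.0.16 (R 4.3.3; TMM factors, quasi-likelihood test, robust) on all 20 HSC libraries with terms for group and sex, which share an estimate of the spread (14 residual and 5.61 prior degrees of freedom, biological coefficient of variation 0.781). The 32 stroma libraries had a fit of their own. Adjusted p is Benjamini-Hochberg over all genes of a comparison, called under 0.05. CPM are counts scaled to TMM-adjusted library size; log2 CPM used a prior count of 2, and fold limits against groups at 0 used 3 counts. No gene was removed: the lowest total over the 20 HSC libraries was 84 counts.

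The alternatives were median-ratio size factors, DESeq2 1.42.0, limma-voom (limma 3.58.1), a minimum of 5 CPM, a count filter, no sex term, the 2 groups alone, no robust prior, and leaving out libraries; a block of mouse-number sets was added after seeing the data. In stroma, deviations from group means of rivenprost and vehicle libraries of a set correlated at 0.14 to 0.55. The rivenprost library of set 3 correlated at 0.14 with its own set and at 0.61 with another. From group and sex means the correlations within a set were -0.13 to 0.23, and the highest with another set 0.04 to 0.14. Whether the libraries pair by set is thus not settled, and the blocked value stands beside the stroma result. The pairing comes from the mouse numbers in the titles. Members, the 28 gene lists and 12 marker lists were chosen with earlier results of these data known. Named are called genes, the receptor and cAMP genes, the called and 3 most abundant members of other lists, genes read for HSC identity, the leading genes by sex and the 5 most similar to Crem. Promoter sequences are RefSeq's, of GRCm38.p6. Genes counted as not analysed here were not in the table used.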

Additional observations from a re-analysis of the deposited data

Results flagged for a closer look

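Over the 67 called genes and both groups of 4 libraries, 9 groups had a library far from the other 3 (a gap to the nearest past Dixon's 95% critical value), where chance gives about 1 in 20. In rivenprost HSC these were Ddx3x at 288 CPM in replicate 4 (213 to 217 CPM in the others), Rasd1 at 62.8 CPM in replicate 3 (23 to 28.7 CPM), Csrnp1 at 365 CPM in replicate 3 (216 to 235 CPM), Trmt1l at 35.2 CPM in replicate 1 (27.5 to 28.1 CPM), Hspa1a at 0.081 CPM in replicate 1 (0 in the others) and Il10 at 0 CPM in replicate 1 (9.74 to 10.5 CPM). In vehicle HSC they were Pdcd1 at 0.311 CPM in replicate 1 (0 in the others), Fam63a at 97.4 CPM in replicate 1 (69.1 to 73.5 CPM) and Cytip at 62.7 CPM in replicate 3 (90.5 to 95.1 CPM). In each of these genes except Hspa1a and Il10 that library still lay on its own group's side of the other group. For Pdcd1 and Hspa1a the other libraries of the group were at 0, so any count would have been flagged.

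For Gabarapl1 the order of the groups differed between the cell fractions. Its log2 fold change, rivenprost over vehicle, was -0.70 in HSC (adjusted p = 0.00774) and 0.24 in stroma (adjusted p = 0.42). In HSC every rivenprost library lay below every vehicle library, and in stroma every rivenprost library lay above every vehicle library, although the stroma change did not pass. That difference was not tested.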

How the results depend on the processing

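Direction held for all 67 called genes in every alternative run on rivenprost against vehicle in HSC. The count of 67 (54 raised, 13 lowered) was 234 by DESeq2 (175 and 59), and 41 to 70 with single libraries left out (37 to 59 raised, 3 to 11 lowered); 36 genes were called in each of these 8 fits (35 raised, 1 lowered), 34 of them under every other alternative too. Of the other counts, 66 genes with median-ratio size factors (64 of the 67), 72 at 5 CPM or more, 59 in the 2 groups alone (47 of the 67), 67 by limma-voom (60 of the 67) and 76 without the 3 libraries that stand apart (59 of the 67) stayed within 1.5 times. Against sulprostone 45 became 172 by DESeq2 and 21 to 30 with single libraries left out; against misoprostol and both agonists 0 became 77 and 63 by DESeq2. The sex difference went from 0 to 39 by DESeq2 and up to 66 with 1 library left out. Stroma gave 347 by DESeq2 instead of 172, and 49 to 195 with single libraries left out. The causes were not tested. The mouse numbers run in sets of 1 sex that hold 1 mouse of each HSC group, and the labels do not say what a set is. With these sets as a replicate block, chosen after seeing the data, 73 genes were called in HSC (59 raised, 14 lowered; 64 of the 67), 44 against sulprostone, 0 against misoprostol, both agonists or by sex, and 379 in stroma. In HSC, rivenprost and vehicle libraries of a set deviated from their group means with correlations of 0 to 0.12, and not every rivenprost library correlated best with the vehicle library of its own set. With 4 mice a group, changes under about 0.65 on the log2 scale were mostly not detectable. Larger changes could be missed as well, since calls are adjusted over all genes.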
